A study of Mus musculus with 18 samples.

Results

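Marrow of mice that overexpress the long non-coding RNA CCAT2 was set against wild-type (WT) marrow. The transgenic side pooled every array whose label gives the status DRAI-, which are 4 mice carrying the G allele of CCAT2 (CCAT2-G) and 4 carrying its T allele (CCAT2-T). These 8 arrays and 4 WT arrays make 12 of the 18 arrays of the series. The other 6 arrays are of DRAI+ mice labelled CCAT2-GT. They served in the estimate of the spread, the choice of probesets and the filter, and enter no group mean below. All mice are C57Bl6, per the labels, and the transgenic ones were engineered to overexpress CCAT2 throughout the body. The WT mice carry no transgene in the labels. The labels do not spell out what DRAI status means, nor give the age or sex of the mice, the promoter of the transgene or the number of founder lines. Each array holds the total RNA of the flash-frozen bone marrow of 1 mouse, titled a biological replicate. Every value below is on the log2 scale, so that a difference of 1 is a doubling of the measured signal, and a difference is the transgenic mean minus the WT mean, with its standard error (SE).

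Bone marrow is the site of blood formation, and its RNA comes mostly from maturing red cells, granulocytes, monocytes and B-lineage cells, with smaller parts from megakaryocytes, stem and progenitor cells and the stromal niche. CCAT2 is a human long non-coding RNA known from colorectal tumours, where it has been linked to MYC and WNT signalling. The series title places these mice in the context of myeloid malignancy, so the comparison of DRAI- with WT marrow asks what either allele changes when present alone. In whole marrow, fewer cells of a type and less RNA per cell cannot be told apart.

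The arrays carried the programme of marrow. The WT means of S100a8, a neutrophil alarmin, Mpo, the peroxidase of primary granules, and Klf1, the erythroid transcription factor, were 13.77, 12.11 and 10.30, and Alb, a liver transcript that marrow should lack, had a WT mean of 3.87. Hba-a1 was not tested because no probeset carries it as the only gene symbol. A gene was tested if its mean reached 3.30, which kept 14505 of 18194 genes. The arrays also differed in ways that no label names. The interquartile range of all values was under 3.1 on 5 arrays, called narrow here. These are CCAT2-T replicates 1 and 2, CCAT2-G replicate 1, and replicates 1 and 2 of WT. Any value below for CCAT2-G in the narrow arrays alone thus rests on 1 CCAT2-G mouse. CCAT2-T replicate 3 had an Xist level of 12.02 and an Eif2s3y level of 2.14. The other mice compared had Xist levels of 3.52 to 4.05 and Eif2s3y levels of 6.96 to 7.93. By these sex-linked genes that mouse reads as female and the others as male, so only CCAT2-T mixed the sexes. WT replicate 4 had the highest mean level of stromal genes (6.59) and of skeletal muscle genes (6.15) among the 12, and the lowest of mature B-cell genes for WT (6.69).

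No gene passed the test of DRAI- against WT. With limma and Benjamini-Hochberg adjustment over all genes, 0 of 14505 genes (0%) had an adjusted p under 0.05, and the smallest adjusted p was 0.999. At an unadjusted p under 0.05, limma gave 144 genes higher (0.993% of those tested) and 53 lower (0.365%), together 197 (1.36%), where 5% of all genes would be 725. The differences had a median size of 0.09 and a median SE of 0.14, and 50.2% of all genes had a difference above 0. Each allele alone gave 0 genes at an adjusted p under 0.05 in limma as well. At an unadjusted p under 0.05 there were 228 genes (1.57%) for CCAT2-G against WT and 451 (3.11%) for CCAT2-T against WT. Both allele comparisons share the same 4 WT mice. The alleles set against each other gave 0 genes at an adjusted p under 0.05 in limma and 912 (6.29%) at the unadjusted threshold. The pooled comparison thus listed fewer genes than that of either allele with WT, and fewer than the alleles with each other.

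**Figure D1:**
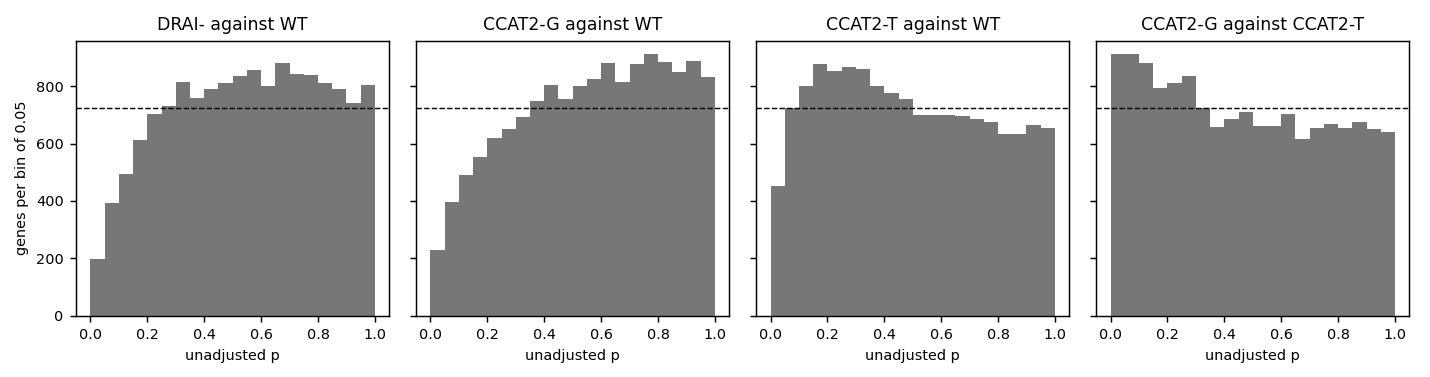
Number of genes in each 0.05-wide bin of the unadjusted p from limma (x axis) for 4 comparisons, over 14505 genes each, with a dashed line at 725 genes, the count per bin of an even spread. The bin nearest 0 holds 197 genes for DRAI- against WT, 228 for CCAT2-G and 451 for CCAT2-T against WT, and 912 for CCAT2-G against CCAT2-T.

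A gene counted as shared by both alleles when its unadjusted p was under 0.05 with the same sign for CCAT2-G and for CCAT2-T against WT. It counted for 1 allele only when that allele met this threshold, the other did not, and the difference between the alleles met it too. By these rules 21 genes were shared (0.145% of those tested), 86 were of CCAT2-G only (0.593%) and 164 of CCAT2-T only (1.13%). Since none passed an adjusted threshold, these sets are descriptions of the present mice. The shared set held 16 genes higher and 5 lower than WT, the CCAT2-G set 49 higher and 37 lower, and the CCAT2-T set 49 higher and 115 lower. All 21 shared genes were among the 197 of the pooled comparison, and in all 197 both alleles had the same sign. Of the pooled genes that were not shared, 52 met the unadjusted threshold for CCAT2-G but not for CCAT2-T, 88 for CCAT2-T but not for CCAT2-G, and 36 for neither. In 3 of the 197 the CCAT2-G rule held in full and in 7 the CCAT2-T rule, while 166 fell in no set.

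Flvcr2, a membrane transporter related to the heme exporter Flvcr1, was the higher gene with the smallest p once predicted genes and clones were left out. It read 3.71, 3.66, 3.69 and 3.56 in the WT mice, 3.91, 3.88, 4.11 and 3.97 in the CCAT2-G mice, and 4.10, 3.87, 4.01 and 3.83 in the CCAT2-T mice. All 8 transgenic mice lay above all 4 WT mice, and the alleles were alike in size, 0.31 for CCAT2-G and 0.30 for CCAT2-T. The pooled difference was 0.31 ± 0.09 (SE, n = 8 and 4), with an unadjusted p of 0.00236 and an adjusted p of 0.999 in limma.

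Ly6g6e, a small membrane-anchored protein of the Ly6 family, was likewise higher in all 8 mice. Its WT levels were 4.44, 4.43, 4.43 and 4.57, against 4.95, 4.68, 4.66 and 4.69 with the G allele and 4.88, 4.68, 4.66 and 4.62 with the T allele. The groups came closest between WT replicate 4 and CCAT2-T replicate 4, and the pooled difference was 0.26 ± 0.08. Dock4, an activator of the small GTPases Rac and Rap, differed by 0.32 ± 0.10, with WT levels of 3.62 to 3.89 and DRAI- levels of 3.91 to 4.37. Of the other 4 probesets of Dock4, 3 had the opposite sign. Epgn, a ligand of the epidermal growth factor receptor, differed by 0.26 ± 0.09, from WT levels of 2.99 to 3.34 that straddle the level a gene needed to be tested. Bcam, the Lutheran blood-group glycoprotein that binds laminin, differed by 0.44 ± 0.16. Its WT mice spread from 3.66 to 4.38 and its DRAI- mice from 4.15 to 4.93, so the groups overlapped.

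Zdhhc15, a palmitoyltransferase, was the lower gene with the smallest p, which was also the smallest of the whole comparison. The WT mice read 4.03, 4.13, 4.13 and 4.40, the CCAT2-G mice 3.88, 3.96, 3.83 and 3.74, and the CCAT2-T mice 3.54, 3.76, 3.82 and 3.73. No transgenic mouse reached the lowest WT mouse. The pooled difference was -0.39 ± 0.10, with -0.32 for CCAT2-G and -0.46 for CCAT2-T, an unadjusted p of 0.000817 and an adjusted p of 0.999 in limma. Its other probeset had the same sign.

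Rragd, which encodes the RagD GTPase that couples amino acids to mTORC1, had the largest shared difference, -0.67 ± 0.23. WT levels were 6.02, 5.89, 6.05 and 6.87, CCAT2-G levels 5.54, 5.82, 5.68 and 5.32, and CCAT2-T levels 5.69, 5.92, 4.72 and 5.62. CCAT2-T replicate 2 alone reached into the WT range, and WT replicate 4 stood apart from the other WT mice. Both other probesets of Rragd had the opposite sign. Pgap1, an enzyme that remodels glycosylphosphatidylinositol anchors, differed by -0.53 ± 0.19 with its other probeset opposite in sign. Ttc39b, a tetratricopeptide protein, differed by -0.26 ± 0.10, with 4 WT levels of 5.80 to 6.00 above 8 DRAI- levels of 5.52 to 5.79, and 2 of its 4 other probesets were opposite in sign. Zcchc4, a methyltransferase of ribosomal RNA, differed by -0.41 ± 0.16, from WT levels that ran from 3.79 to 4.73. Tusc1, a gene known as a candidate tumour suppressor, was among the 5 lower genes named for the smallest pooled p without being shared, at -0.29 ± 0.11. It was lower by 0.37 with the G allele, which met the unadjusted threshold, and by 0.21 with the T allele, which did not.

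The other 11 shared genes were all higher than WT, by 0.25 to 0.43. Phgdh, which encodes the enzyme that opens the serine synthesis pathway, was the one member of the gene lists described further on. It read 8.31, 8.15, 7.93 and 7.70 in WT mice, 8.20, 8.54, 8.09 and 8.99 with the G allele and 8.44, 8.30, 8.61 and 8.43 with the T allele. Its difference was 0.43 ± 0.16, its 3 other probesets had the same sign, and CCAT2-G replicates 1 and 3 and CCAT2-T replicate 2 lay inside the WT range. Sfrp1, a secreted antagonist of WNT ligands, was higher by 0.34 ± 0.11, and 2 of its 4 other probesets were opposite in sign. Epha1, an ephrin receptor, was higher by 0.26 ± 0.08. Tox, a nuclear factor of T-cell development, was higher by 0.35 ± 0.12 from a WT mean of 3.23, and Gpr158, an orphan receptor, by 0.36 ± 0.13. The remaining 6 were higher by 0.25 to 0.31. They are the substance P receptor Tacr1, the amino acid transporter Slc36a2, the phosphatase subunit Ppp2r3a, the guanine nucleotide exchange factor Sergef, the pregnancy-specific glycoprotein Psg21 and the clone 2310068J16Rik.

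**Figure D2:**
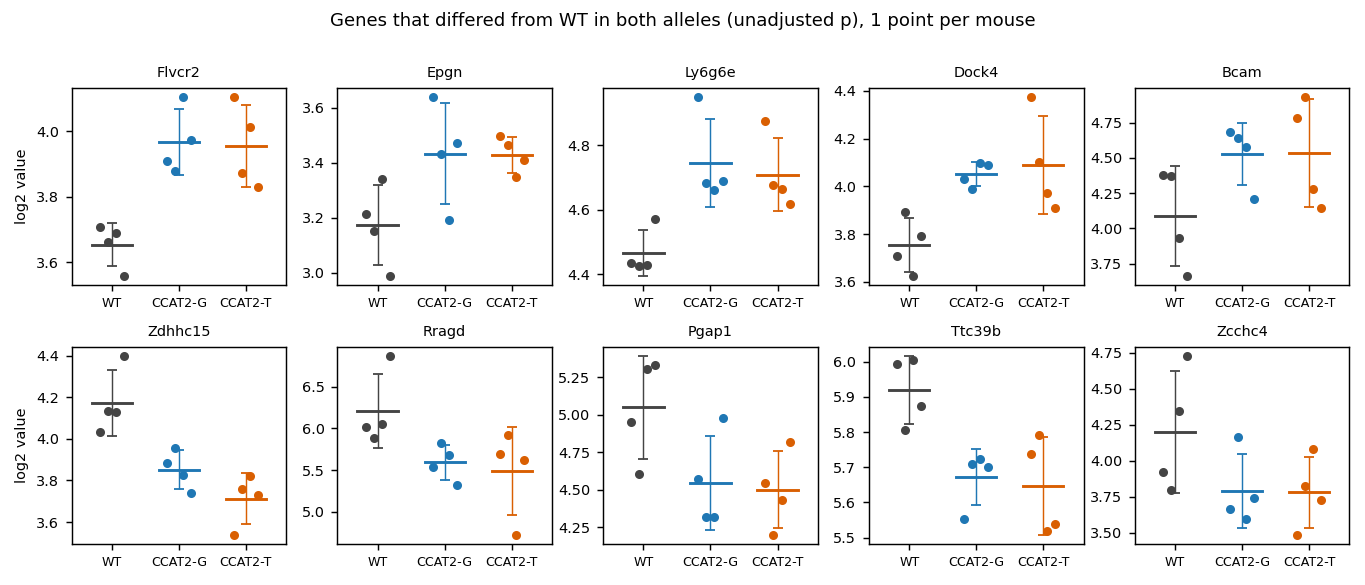
Log2 value (y axis) of the 5 shared higher genes (upper row) and the 5 shared lower genes (lower row) with the smallest p in each of 4 WT, 4 CCAT2-G and 4 CCAT2-T mice. Predicted genes and clones were left out of this choice. Points are mice, horizontal lines group means and bars the SD. In Flvcr2, Ly6g6e, Dock4, Zdhhc15 and Ttc39b the WT mice do not overlap with the 8 transgenic mice.

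The shared genes were dim for the most part. Their median WT level was 4.14, against 6.03 over all genes tested, and the medians of the CCAT2-G and CCAT2-T sets were 6.39 and 6.72. Among 13 shared genes with a further probeset, 15 of 29 further probesets had the opposite sign to the one tested. The corresponding counts were 19 of 90 for the CCAT2-G set and 58 of 184 for the CCAT2-T set. Whether a low signal plays a part in the shared set was not tested. The count of 21 moved with single mice. It was 71 without WT replicate 1, 86 without WT replicate 2, 8 without WT replicate 4, 11 without CCAT2-G replicate 1 and 63 without CCAT2-G replicate 3. Flvcr2, Ly6g6e and Zdhhc15 stayed in the shared set under 27 of 30 alternative settings, Epgn under 24, Sfrp1 under 23, and Zcchc4 under 11.

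Another view of the pooled direction asks for no overlap at all between the 8 DRAI- mice and the 4 WT mice. It was met by 9 genes, 0.062% of those tested. Chst2, Fer and Senp7 were among them without meeting the rule for shared genes. Chst2, a sulfotransferase of carbohydrate chains, and Psg21 joined Flvcr2, Ly6g6e and Dock4 on the higher side, at 0.18 ± 0.08 and 0.25 ± 0.08. On the lower side Fer, a non-receptor tyrosine kinase, and Senp7, a SUMO protease, joined Zdhhc15 and Ttc39b. Senp7 read 7.38, 7.41, 7.52 and 7.79 in WT mice, 7.36, 7.37, 7.31 and 7.10 with the G allele, and 7.32, 7.37, 7.16 and 7.30 with the T allele. The highest DRAI- mice lay just below the lowest WT mouse, and the difference was -0.24 ± 0.11. Fer differed by -0.21 ± 0.12, with an unadjusted pooled p of 0.0963 in limma, and 1 of its 2 other probesets was opposite in sign. The count of 9 became 42, 53 and 36 without WT replicates 1, 2 and 3, 41 without CCAT2-G replicate 3, and 19 without WT replicate 4 or CCAT2-G replicate 2. It became 15 without CCAT2-T replicate 2 or 4, and leaving out any mouse can only add to it.

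Add1, which encodes alpha-adducin of the spectrin-based membrane skeleton, was the 1 gene that met the unadjusted threshold for both alleles with opposite signs, and is described here for that reason, chosen after its values were seen. The WT mice read 8.98, 9.05, 9.20 and 9.00. The CCAT2-G mice read 8.89, 8.90, 8.54 and 8.44, all below WT, and the CCAT2-T mice 9.44, 9.63, 10.06 and 9.81, all above WT. The groups of mice did not overlap anywhere in this order. Add1 was lower by 0.37 ± 0.16 with the G allele and higher by 0.67 ± 0.16 with the T allele, and the difference between the alleles, -1.04 ± 0.16, had the smallest p of all genes in that comparison, 3.99e-06 before and 0.0579 after limma's Benjamini-Hochberg adjustment. Pooling cancelled most of it, leaving 0.15 ± 0.25 and an unadjusted p of 0.541. Under 30 alternative settings the adjusted p for the alleles ran from 0.0254 to 0.829, was under 0.05 in 3, and the difference ran from -1.31 to -0.642. The value of 0.829 came from averaging its probesets, and 1 of its 2 others was opposite in sign.

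In the set of the G allele only, Il1rap, the accessory chain shared by the receptors of interleukin-1 and interleukin-33, had the smallest p of the CCAT2-G comparison. It read 5.65, 5.80, 5.89 and 5.70 in WT mice, 6.25, 6.30, 6.64 and 6.31 in CCAT2-G mice and 5.96, 5.76, 5.34 and 5.85 in CCAT2-T mice. All 4 CCAT2-G mice lay above the other 8, for a difference of 0.61 ± 0.16 from WT against -0.03 ± 0.16 with the T allele. The difference between the alleles was 0.65 ± 0.16, with an adjusted p of 0.743 in limma, and 1 of its 4 other probesets was opposite in sign for CCAT2-G. Casp4, the mouse caspase-11 that senses lipopolysaccharide inside cells, read 6.06, 6.11, 6.41 and 6.37 in WT mice, 6.36, 6.82, 6.90 and 7.01 in CCAT2-G mice, and 6.04, 6.22, 6.12 and 6.05 in CCAT2-T mice. CCAT2-G replicate 1 overlapped with WT, the other CCAT2-G mice did not, and the difference was 0.53 ± 0.17 for CCAT2-G and -0.13 ± 0.17 for CCAT2-T.

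The other 2 higher genes named by the same rule serve RNA and protein synthesis. Mrps24, a protein of the mitochondrial ribosome, was higher by 0.41 ± 0.18 with the G allele and lower by 0.30 ± 0.18 with the T allele. Rpp40, a subunit of ribonuclease P, was higher by 0.41 ± 0.14 and lower by 0.14 ± 0.14. Both genes put all 4 CCAT2-G mice above the WT mean and all 4 CCAT2-T mice below it. Among the lower genes, Trp53bp1, which encodes the 53BP1 protein that steers double-strand breaks to end joining, read 7.01, 7.01, 7.32 and 7.29 in WT mice. Its CCAT2-G levels were 6.87, 6.55, 6.63 and 6.84, below every WT mouse, and its CCAT2-T levels 7.76, 7.21, 7.77 and 7.07. The difference was -0.44 ± 0.16 for CCAT2-G and 0.29 ± 0.16 for CCAT2-T, and 1 of its 5 other probesets was opposite in sign for CCAT2-G. Gapvd1, an exchange factor of the endosomal GTPase Rab5, was lower by 0.35 ± 0.11, Tpcn1, a cation channel of endosomes and lysosomes, by 0.35 ± 0.14, and the doublecortin-like kinase Dclk2 by 0.23 ± 0.10. All 3 were higher than WT on average with the T allele, by 0.08, 0.16 and 0.14.

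Members of the gene lists, which hold 899 of the 14505 genes tested, made up 9 of the 86 genes of the CCAT2-G set. Socs3, the feedback inhibitor of cytokine signalling through STAT3, had the largest difference among them, 1.52 ± 0.42. It read 6.88, 7.17, 6.92 and 7.08 in the CCAT2-G mice and 5.51, 5.45, 6.78 and 5.72 in the CCAT2-T mice. The WT mice read 5.20, 4.89, 6.96 and 4.93, so WT replicate 3 stood within the CCAT2-G range and the other 3 well below it. The decoy receptor Il1r2 was higher by 0.97 ± 0.36, the haemoglobin scavenger receptor Cd163 of macrophages by 1.32 ± 0.52 and the myeloid membrane protein Ms4a6d by 1.43 ± 0.52, with 1 of its 2 other probesets opposite in sign. The polyamine enzyme spermidine synthase (Srm) was higher by 0.53 ± 0.22, the ribosome biogenesis factor Rrs1 by 0.43 ± 0.19 and the endoplasmic reticulum protein Sdf2l1 by 0.54 ± 0.23. Camp, which encodes the antimicrobial peptide cathelicidin, was lower by 0.21 ± 0.10, and Trp53bp1 is the remaining one. The set's size was 291 without CCAT2-G replicate 1, 356 without replicate 3 and 38 without replicate 4.

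The set of the T allele only lay mainly on the lower side, with 115 of 164 genes. Psmg2, a chaperone of proteasome assembly, read 7.62, 7.85, 8.03 and 8.37 in WT mice, 7.76, 8.42, 8.32 and 8.18 in CCAT2-G mice and 7.25, 7.41, 6.95 and 7.83 in CCAT2-T mice. CCAT2-T replicate 4 lay inside the WT range and the other CCAT2-T mice below it, for a difference of -0.61 ± 0.21. Trmt10c, a subunit of mitochondrial ribonuclease P, read 6.34, 6.23, 6.23 and 6.68 in WT mice, 6.14, 6.80, 6.66 and 6.78 in CCAT2-G mice and 6.13, 5.75, 5.60 and 6.06 in CCAT2-T mice. All 4 CCAT2-T mice were below all WT and all CCAT2-G mice, and the difference was -0.48 ± 0.17. Scfd1, a factor of transport between endoplasmic reticulum and Golgi, was lower by 0.44 ± 0.18 and Lap3, a leucine aminopeptidase, by 0.42 ± 0.19. Both were higher than WT on average with the G allele, by 0.27 ± 0.18 and 0.29 ± 0.19.

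On the higher side of the T allele, Tyw1, an enzyme of the wybutosine modification of transfer RNA, read 4.79, 4.76, 4.75 and 4.61 in WT mice, 4.74, 4.70, 4.78 and 4.63 in CCAT2-G mice and 4.95, 5.12, 5.12 and 5.03 in CCAT2-T mice. The WT and CCAT2-G mice shared a range and all 4 CCAT2-T mice lay above it, by 0.33 ± 0.10 on average, yet the other probeset of Tyw1 was opposite in sign and averaging both gave -0.0581. Ptpa, an activator of protein phosphatase 2A, was higher by 0.43 ± 0.18, Gon4l, a chromatin regulator of B-cell development, by 0.38 ± 0.13, and Cchcr1, a coiled-coil protein of centrosomes and P-bodies, by 0.30 ± 0.14. CCAT2-T replicate 3 was the highest mouse for all 3, at 10.04, 7.07 and 6.84. That mouse is the one with high Xist, and the count of 164 became 84 without it. The count was 664 without CCAT2-T replicate 4, 52 without WT replicate 4, and 264, 108 and 92 without CCAT2-G replicates 1, 2 and 3. With a sex score (Xist minus the mean of Y-linked genes) as covariate the set held 93 genes, 72 of them from the 164. Without the Xist-high arrays, CCAT2-GT mice included, it held 57, 33 of them from the 164.

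The gene lists, with 899 of the 14505 genes tested, supplied 12 of the 164 genes of the CCAT2-T set. On the lower side were 3 subunits of the respiratory chain, described below, the clamp loader subunit Rfc3 (-0.64 ± 0.21), and the ribosomal protein Rpl27 (-0.21 ± 0.10). The cytokine receptor kinase Jak1 (-0.34 ± 0.15), the Polycomb accessory factor Mtf2 (-0.36 ± 0.15) and the transfer RNA deaminase Adat2 (-0.45 ± 0.18) were lower too. The higher ones were the T-box factor Eomes (0.55 ± 0.24), the MAX partner Mnt (0.34 ± 0.16), the splicing factor U2af2 (0.29 ± 0.13) and Hoxb4, a homeobox factor of stem cells (0.30 ± 0.13).

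**Figure D3:**
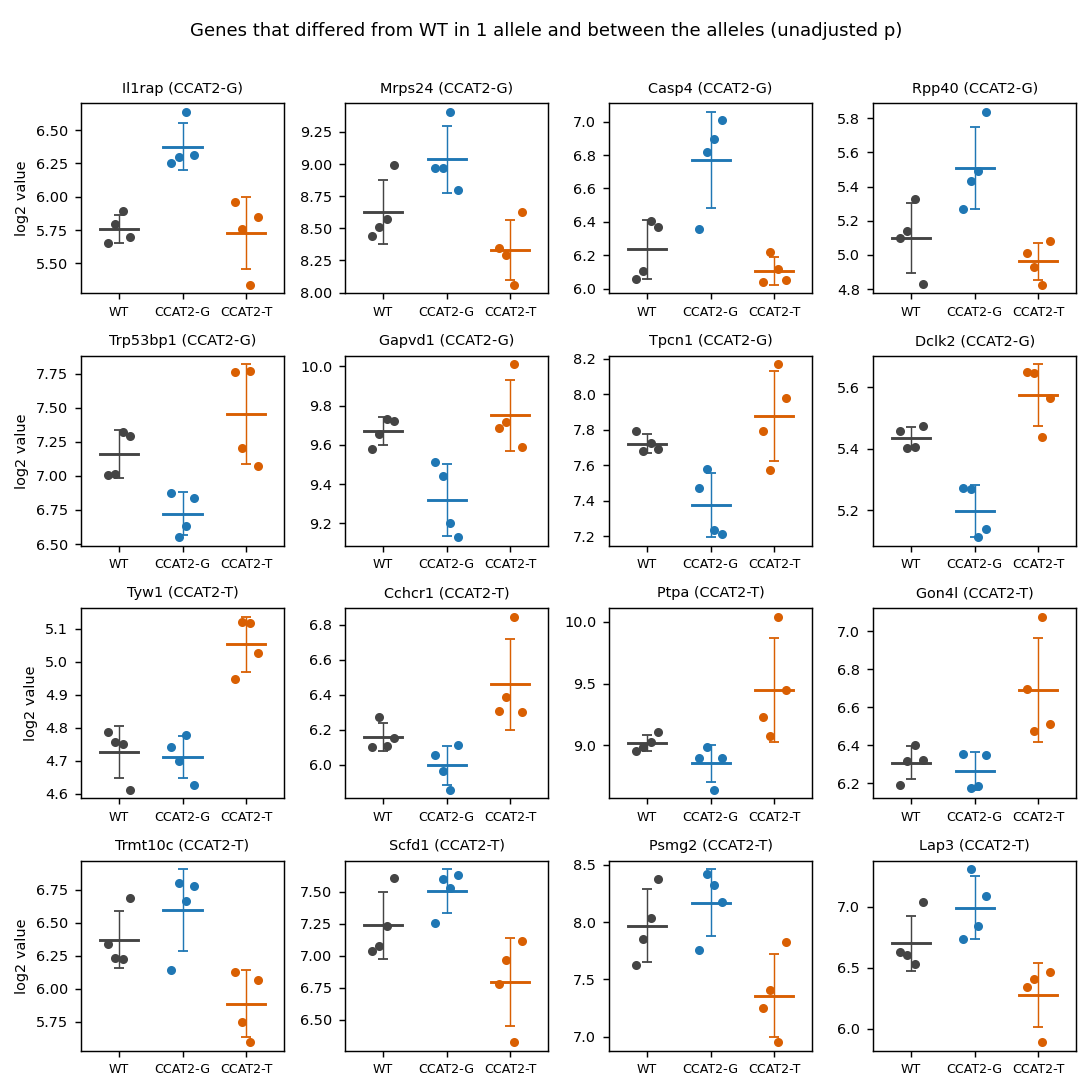
Log2 value (y axis) of the 8 genes named for CCAT2-G only (upper rows) and the 8 for CCAT2-T only (lower rows) in each of 4 WT, 4 CCAT2-G and 4 CCAT2-T mice, with points for mice, horizontal lines for group means and bars for the SD. In Il1rap the CCAT2-G mice lie above the other 8 mice, and in Trmt10c the CCAT2-T mice lie below the other 8.

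The members of 39 gene lists were then read across the pooled comparison, each list by its counts and its median beside those of all genes. Of all genes 50.2% were higher, with a median of 0.0008. For the alleles against WT, 53.2% of all genes were higher with CCAT2-G and 50.5% with CCAT2-T. No member of any list had an adjusted p under 0.05, and 7 of the 899 list genes (0.779%) had an unadjusted p under 0.05, a share below the 1.36% of all genes. Red cell genes leaned lower in count. All 23 measured genes of the erythroid membrane and globins were lower in DRAI- than in WT marrow, with a median of -0.23, and none had an unadjusted p under 0.05. Both alleles had a median below 0, -0.27 for CCAT2-G (-0.13 without CCAT2-G replicate 4) and -0.17 for CCAT2-T (-0.05 without CCAT2-T replicate 3). Car1, a carbonic anhydrase of red cells, differed by -0.53 ± 0.33, the urea transporter Slc14a1 by -0.35 ± 0.20 and Add2, beta-adducin of the red cell skeleton, by -0.34 ± 0.22. Of 15 genes of heme synthesis and red cell iron 13 were lower, with a median of -0.22. They include the iron transporter Slc11a2 (-0.34 ± 0.19), the mitochondrial glycine carrier Slc25a38 (-0.28 ± 0.18) and the heme synthesis enzyme Urod (-0.32 ± 0.21).

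The mean erythroid level of a mouse showed which animals carried this. It was 9.61, 9.52, 9.78 and 9.76 in WT mice, 9.64, 9.84, 9.16 and 8.89 in CCAT2-G mice and 9.53, 9.66, 9.28 and 9.51 in CCAT2-T mice. CCAT2-G replicates 3 and 4 and CCAT2-T replicate 3 were the lowest, and CCAT2-G replicate 2 was the highest of all. Klf1 likewise read 10.45, 10.78, 9.80 and 9.49 in the CCAT2-G mice against 10.22 to 10.39 in WT mice. The erythroid median was -0.45 without the 5 narrow arrays, 0.06 in those 5 alone, and -0.07 with array weights. For the heme list these values were -0.44, 0.05 and -0.04.

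Platelet genes were lowest with the T allele. The megakaryocyte and platelet list had a median of -0.30 in the pooled comparison with 20 of 21 genes lower. Its median was 0.19 for CCAT2-G with 17 of 21 higher, and -0.79 for CCAT2-T with 20 of 21 lower. The mean level of the list was 7.29, 7.40, 7.24 and 8.59 in WT mice, 7.35, 8.16, 7.36 and 8.34 in CCAT2-G mice and 7.16, 7.03, 6.32 and 6.81 in CCAT2-T mice. All 4 CCAT2-T mice were below every WT and every CCAT2-G mouse, while WT replicate 4 was far above the other WT mice. Pf4, the platelet chemokine, read 9.53, 9.41, 8.16 and 8.82 in CCAT2-T mice, 9.71, 11.01, 9.71 and 11.28 in CCAT2-G mice and 9.76, 10.12, 9.41 and 11.37 in WT mice. It differed by 1.45 ± 0.76 between the alleles. Thbs1, thrombospondin of platelet granules, differed by -0.62 ± 0.57 in the pooled comparison, -0.11 for CCAT2-G and -1.12 for CCAT2-T. The alleles differed with the G allele above the T allele in 20 of 21 list genes (49.4% of all genes), and 2 differed at an unadjusted p under 0.05 (6.29% of all genes). Without WT replicate 4 the medians were 0.02 pooled, 0.52 for CCAT2-G and -0.39 for CCAT2-T. The CCAT2-G median was not stable in sign, at -0.02 without CCAT2-G replicate 4 and -0.06 in the narrow arrays alone, while that of CCAT2-T was -0.57 without CCAT2-T replicate 3 and -0.21 in the narrow arrays alone.

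Stromal and muscle genes were highest in the same WT mouse. The median of the 27 genes of stroma, bone and endothelium was -0.29 pooled, 0.06 for CCAT2-G (-0.24 without WT replicate 3) and -0.52 for CCAT2-T, and it was 0.07 in the pooled comparison without WT replicate 4. Their mean level was 5.74, 5.48, 4.70 and 6.59 in WT mice, and it was lowest in CCAT2-T replicates 3 and 4, at 4.40 and 4.71. The leptin receptor Lepr, a marker of niche stromal cells, read 5.98, 4.80, 3.85 and 8.32 in the WT mice, a range that takes in every DRAI- mouse except CCAT2-T replicates 3 and 4. The 17 skeletal muscle genes had a median of -0.22, with Acta1 at 6.94 in WT replicate 4 and 6.27 in CCAT2-T replicate 1 against 4.38 to 4.96 in the other mice. Their median was 0.07 without WT replicate 4. The part that tissue attached to the marrow plays in these values was not tested.

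Lymphoid and antigen-presenting genes leaned the other way. The mature B-cell list had a median of 0.26 with 25 of 29 genes higher, the B-cell precursor list 0.11 with 20 of 26, and the list of dendritic cells and MHC class II 0.22 with 19 of 19. The T and NK list had a median of 0.15 with 25 of 27 higher, and none of these members had an unadjusted p under 0.05. Cd79a, a subunit of the B-cell receptor, read 8.99, 9.03, 6.15 and 5.42 in WT mice, 9.08, 8.55, 5.07 and 9.01 in CCAT2-G mice and 8.93, 8.49, 7.32 and 8.31 in CCAT2-T mice. The spread within WT thus exceeded the difference of 0.70 ± 0.74, with WT replicates 3 and 4 and CCAT2-G replicate 3 low. The same mice were low for Ly6d, a marker of B-lineage cells (7.61, 7.56 and 7.63), and for Vpreb1, of the pre-B-cell receptor (7.20, 7.01 and 4.22), for which CCAT2-T replicate 3 was low as well (6.74). Without WT replicate 4 the medians became -0.06 for mature B cells, -0.08 for precursors, 0.02 for dendritic cells and 0.03 for T and NK cells. In the 5 narrow arrays alone, they were -0.03, -0.05, -0.06 and 0.11.

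Granule genes of neutrophils leaned lower in count. Of the 10 measured members of the primary granule list 9 were lower, with a median of -0.24 and none at an unadjusted p under 0.05. The median was -0.10 without WT replicate 4 and -0.13 without CCAT2-G replicate 1. Of 16 secondary and tertiary granule genes 13 were lower, with a median of -0.13 that ran from -0.06 without WT replicate 3 or CCAT2-G replicate 2 to -0.21 without CCAT2-G replicate 3. Their median was -0.21 for CCAT2-G with 14 of 16 lower and 0.02 for CCAT2-T. The WT and DRAI- means of S100a8 differed by 0.01 ± 0.06. Its DRAI- levels of 13.70 to 13.86 lay near the highest value of all arrays, 14.19, and whether its signal could still rise was not tested. Cst7, an inhibitor of granule proteases, differed by -0.28 ± 0.24 and Nkg7, a granule membrane protein, by -0.29 ± 0.19. Calr, which encodes calreticulin and was placed in the primary granule list, was its 1 member that was higher, by 0.20. Mpo differed by -0.22 ± 0.23 and the neutrophil elastase gene Elane by -0.16 ± 0.32. The monocyte list had a median of 0.12 for CCAT2-G and -0.22 for CCAT2-T, with the G allele above the T allele in 25 of 34 genes, 5 differing at an unadjusted p under 0.05 (6.29% of all genes). Without WT replicate 4 these medians were 0.26 and -0.06, without WT replicate 3 they were -0.07 and -0.15, and in the narrow arrays alone they were -0.21 and -0.24. The progenitor genes Kit and Cd34 differed by -0.22 ± 0.24 and 0.27 ± 0.36.

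**Figure D4:**
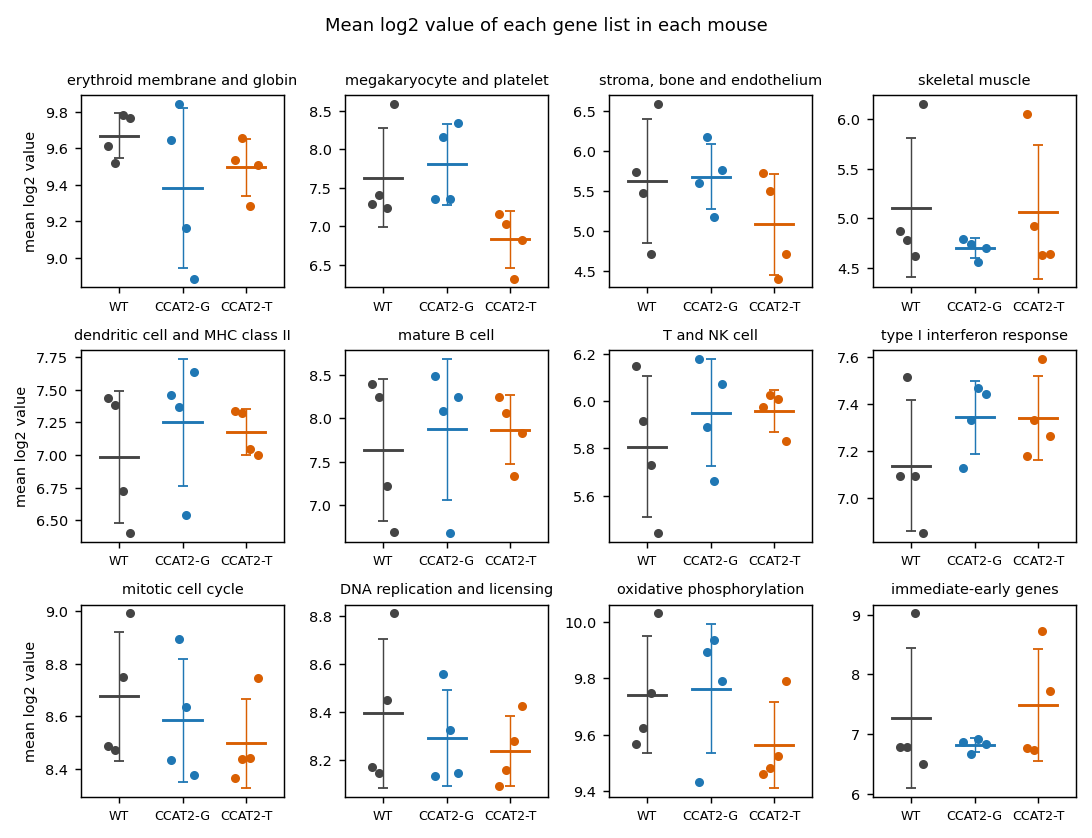
Mean log2 level of the measured members of gene lists (y axis) in each of 4 WT, 4 CCAT2-G and 4 CCAT2-T mice, with points for mice, horizontal lines for group means and bars for the SD. The 4 CCAT2-T mice lie below all others for the platelet list, and WT replicate 4 is the highest of the WT mice for platelet, stromal and muscle genes.

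Interferon-stimulated genes leaned higher in count, with 1 member past the unadjusted threshold. Of the 56 measured members of the type I interferon list, 46 had a higher level, with a median of 0.19, and the medians of the alleles were 0.17 for CCAT2-G and 0.18 for CCAT2-T. The mean level of the list was 7.09, 7.51, 7.09 and 6.85 in WT mice, 7.12, 7.33, 7.47 and 7.44 in CCAT2-G mice, and 7.18, 7.33, 7.59 and 7.26 in CCAT2-T mice. Of the DRAI- mice 7 were above the WT mean, but CCAT2-T replicate 3 alone exceeded WT replicate 2, so the groups overlapped. Oas2, an oligoadenylate synthetase that activates antiviral RNase L, was the only list member with an unadjusted p under 0.05, at 0.72 ± 0.33. It read 6.20, 6.79, 6.23 and 5.49 in WT mice, 6.56, 6.47, 6.94 and 6.65 in CCAT2-G mice and 6.82, 6.76, 8.29 and 6.68 in CCAT2-T mice, so that CCAT2-T replicate 3 stood far above the rest. Trim30a, an interferon-induced regulator of innate signalling, differed by 0.46 ± 0.23 and Ifi35, an interferon-induced leucine zipper protein, by 0.31 ± 0.15. The median was 0.41 without the 5 narrow arrays, -0.09 in those 5 alone, 0.11 without WT replicate 4, and -0.01 with array weights. The narrow arrays alone gave -0.18 for CCAT2-G and -0.06 for CCAT2-T, and array weights gave 0.01 and 0.00112. The list of interferon receptors and signalling had a median of 0.09, and Usp18, the negative regulator of the receptor, differed by 0.57 ± 0.33.

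The upstream sequences of these genes were searched for a pattern known from interferon-stimulated promoters. The core of the interferon-stimulated response element, written as GAAA followed by any 2 bases and a second GAAA, was searched on both strands in the 250 bases before the gene start in RefSeq (GRCm38.p6). It occurred in 14 of the 42 list members with an entry (33.3%), against 3.04% of all 27025 promoters. Trim30a (chr7:104465194-104465443, minus strand) holds 1 match and Ifi35 (chr11:101448162-101448411, plus strand) none, and both are shown because they are the named list genes with an entry. Each sequence runs 5′ to 3′ along the gene, and the capitals mark the match, which reads as its reverse complement in Trim30a.
Trim30a: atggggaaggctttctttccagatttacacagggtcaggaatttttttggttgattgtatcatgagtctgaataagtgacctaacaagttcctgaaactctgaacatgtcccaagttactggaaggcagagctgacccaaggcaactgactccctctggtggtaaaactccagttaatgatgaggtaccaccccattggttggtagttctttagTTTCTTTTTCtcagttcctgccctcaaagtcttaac
Ifi35: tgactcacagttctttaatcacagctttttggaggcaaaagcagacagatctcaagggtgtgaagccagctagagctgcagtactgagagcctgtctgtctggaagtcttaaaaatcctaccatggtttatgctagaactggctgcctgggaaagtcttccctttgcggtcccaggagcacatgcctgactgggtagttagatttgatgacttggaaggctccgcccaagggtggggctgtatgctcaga
The median difference was 0.252 for the members with a match and 0.135 for those with an entry and no match. A match is a description of the sequence, and the lack of one says only that this pattern is not in this window.

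Cell division genes leaned lower in count. Of 51 mitotic genes 50 were lower, from -0.31 to 0.14 with a median of -0.13, and none at an unadjusted p under 0.05. The medians were -0.09 for CCAT2-G and -0.19 for CCAT2-T. Kif4, a chromosome-associated kinesin, read 8.04, 8.03, 8.07 and 8.52 in WT mice, 7.78, 8.22, 8.05 and 7.65 in CCAT2-G mice and 7.96, 7.91, 7.60 and 8.11 in CCAT2-T mice. Its groups overlapped and its difference was -0.25 ± 0.14. Cdca3, a trigger of mitotic entry, differed by -0.31 ± 0.19 and cyclin B2 (Ccnb2) by -0.27 ± 0.17. Of 47 genes of DNA replication and licensing 42 were lower, with a median of -0.13, among them the thymidine kinase Tk1 (-0.37 ± 0.21) and the polymerase subunit Pola2 (-0.19 ± 0.11), whose 2 other probesets were opposite in sign. WT replicate 4 had the highest mean level of both lists, 8.99 and 8.81. Without it the medians were -0.01 for the mitotic and 0.01 for the replication list, and with array weights they were 0.04 and 0.05.

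The promoters of these mitotic genes hold the CCAAT box, the site of the factor NF-Y, which recurs in genes of the G2 and M phases. CCAAT on either strand occurred in 31 of 41 mitotic promoters (75.6%) against 34.5% of all, and TTTGAA, the core of the cell cycle homology region, in 12 of 41 (29.3%) against 16.3%, over the same 250 bases of RefSeq. The 3 promoters shown belong to the mitotic genes with the smallest p. They lie at chrX:100625815-100626064 (plus strand), chr6:124829926-124830175 (plus strand) and chr9:70421555-70421804 (minus strand) of GRCm38.p6. Kif4 and Cdca3 hold 2 CCAAT matches each, and Ccnb2 holds 3 with 1 TTTGAA match, all in capitals, 5′ to 3′ along the gene.
Kif4: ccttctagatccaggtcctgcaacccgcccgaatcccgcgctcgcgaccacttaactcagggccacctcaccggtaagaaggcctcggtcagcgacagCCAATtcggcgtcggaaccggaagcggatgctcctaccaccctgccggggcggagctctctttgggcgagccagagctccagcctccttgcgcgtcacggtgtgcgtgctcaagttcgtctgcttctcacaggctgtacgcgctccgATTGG
Cdca3: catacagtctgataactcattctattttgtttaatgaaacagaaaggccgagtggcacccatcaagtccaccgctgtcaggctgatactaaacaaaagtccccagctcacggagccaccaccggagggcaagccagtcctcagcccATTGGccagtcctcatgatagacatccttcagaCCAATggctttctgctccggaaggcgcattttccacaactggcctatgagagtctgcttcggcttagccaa
Ccnb2: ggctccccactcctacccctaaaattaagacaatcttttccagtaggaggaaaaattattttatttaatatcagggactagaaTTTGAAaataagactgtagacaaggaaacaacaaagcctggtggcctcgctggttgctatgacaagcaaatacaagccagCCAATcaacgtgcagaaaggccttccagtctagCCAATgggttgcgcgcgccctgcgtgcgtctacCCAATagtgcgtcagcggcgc
Matches to CCAAT on the opposite strand read ATTGG here. The median difference was -0.164 for members with CCAAT and -0.13 for those without, and -0.0928 with TTTGAA and -0.171 without.

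Genes of the respiratory chain leaned lower in count with the T allele. The median of 34 genes of oxidative phosphorylation was -0.20 for CCAT2-T with 33 lower, and 0.01 for CCAT2-G with 14 lower. The G allele was above the T allele in 30 of 34 genes (49.4% of all genes), and 7 differed at an unadjusted p under 0.05 (6.29% of all genes). Atp5b, the catalytic subunit of ATP synthase, read 11.15, 11.13, 11.24 and 11.44 in WT mice, 11.07, 11.35, 11.44 and 11.14 in CCAT2-G mice and 10.74, 11.04, 10.31 and 11.28 in CCAT2-T mice. CCAT2-T replicate 4 lay inside the WT range and the other 3 below it, for a difference of -0.40 ± 0.17. Sdhb, the iron-sulfur subunit of succinate dehydrogenase, differed by -0.32 ± 0.13 with the T allele and 0.14 ± 0.13 with the G allele. Uqcrc2, a core subunit of complex III, differed by -0.31 ± 0.14 and 0.04 ± 0.14. The pooled median was -0.08 with 31 of 34 lower, and without WT replicate 4 the medians were 0.01 pooled and -0.08 for CCAT2-T.

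The MYC network, to which CCAT2 has been linked, leaned higher with the G allele. The list of the MYC network and ribosome biogenesis had a median of 0.07 pooled with 27 of 39 higher. Its median was 0.21 for CCAT2-G with 31 higher (53.2% of all genes) and -0.01 for CCAT2-T with 19 higher (50.5% of all genes). The alleles differed at an unadjusted p under 0.05 in 9 of the 39 genes, against 6.29% of all genes. The pooled median was 0.01 without WT replicate 1, 0.02 without CCAT2-G replicate 4 and 0.04 without CCAT2-G replicate 2. That of CCAT2-G was 0.12 without CCAT2-G replicate 4 and -0.03 in the narrow arrays alone. Ppan, a factor of large ribosomal subunit assembly, was the 1 member with an unadjusted pooled p under 0.05, at 0.32 ± 0.14. It read 6.12, 6.28, 6.57 and 6.36 in WT mice, 6.52, 6.72, 6.53 and 6.97 in CCAT2-G mice and 6.20, 6.45, 7.09 and 6.76 in CCAT2-T mice, with an overlap between the groups. Bop1, of the same pathway, differed by 0.21 ± 0.12, and Mxi1, an antagonist of MYC, by -0.21 ± 0.14. The WNT list had a median of 0.07 with 20 of 25 higher and no member at an unadjusted p under 0.05, and without single mice this ran from 0.02 (WT replicate 4) to 0.15 (WT replicate 2). The unfolded protein list had a median of 0.05, with 0.10 for CCAT2-G and -0.02 for CCAT2-T, and its chaperones Hyou1 and Hsp90b1 differed by 0.30 ± 0.15 and 0.22 ± 0.13.

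Among inflammatory genes of the NF-kB pathway the median was 0.01, yet Bcl3, a nuclear member of the IkB family, differed by 0.84 ± 0.28 at an unadjusted p of 0.00695 in limma (adjusted p 0.999). It read 5.88, 6.20, 6.07 and 5.18 in WT mice, 6.97, 6.99, 6.15 and 7.62 in CCAT2-G mice and 6.38, 6.13, 6.70 and 6.49 in CCAT2-T mice. CCAT2-G replicate 3 and CCAT2-T replicate 2 lay inside the WT range and the other 6 above it, with differences of 1.10 ± 0.31 and 0.59 ± 0.31. Immediate-early genes had a median of -0.01, and their mean level was 9.02 in WT replicate 3 and 8.72 in CCAT2-T replicate 3 against 6.50 to 7.71 in the other mice. The median was -0.31 for CCAT2-G and 0.13 for CCAT2-T, and without WT replicate 3 they were 0.08 and 0.62, and 0.35 pooled. Without CCAT2-T replicate 3 the CCAT2-T median was -0.24. Atf3, a stress-induced transcription factor, read 8.41 in that WT mouse and 5.36 to 5.57 in the other WT mice.

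**Figure D5:**
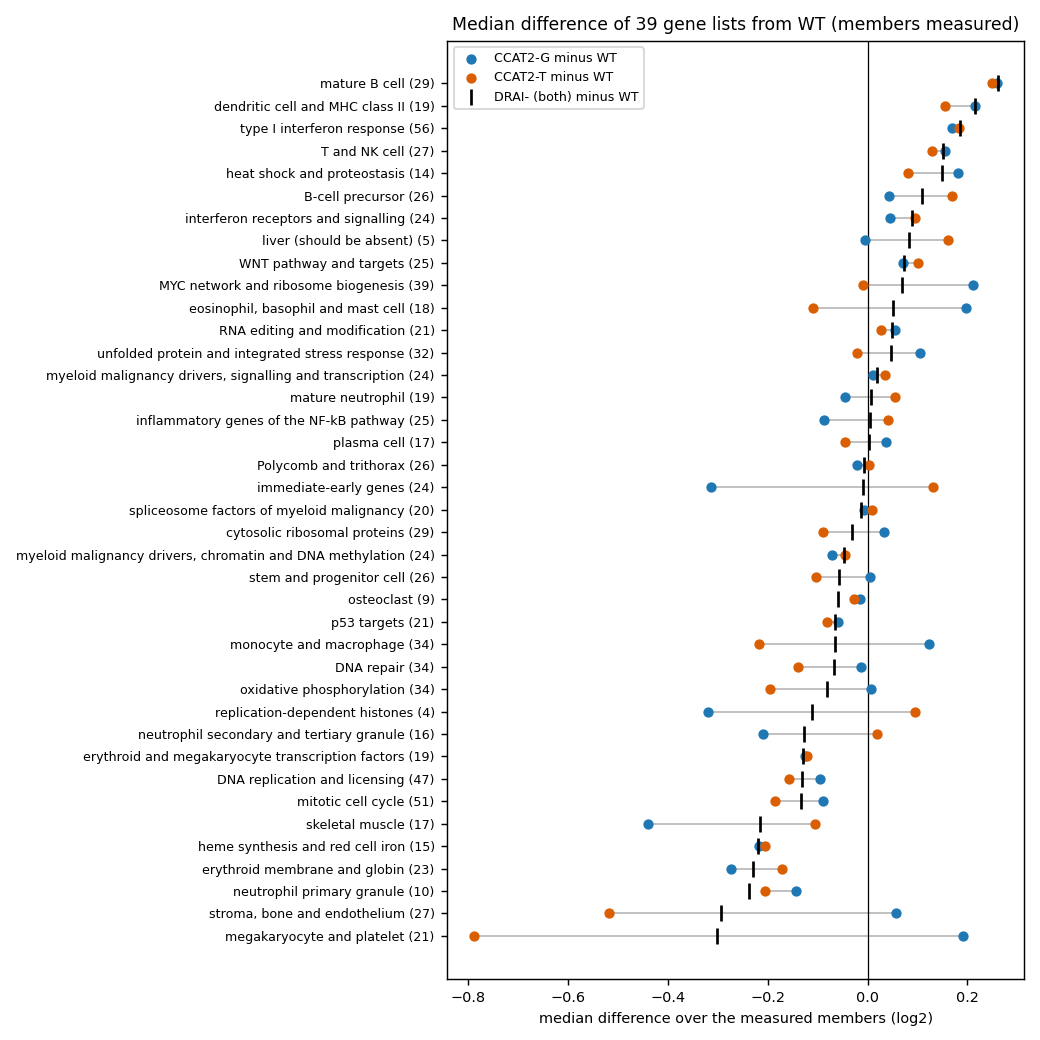
Median difference from WT (x axis, log2) of the measured members of each gene list (y axis) for CCAT2-G and CCAT2-T (points) and DRAI- (ticks), with the number of members in brackets and a line at 0. For platelet genes CCAT2-G lies at 0.19 (-0.02 without CCAT2-G replicate 4) and CCAT2-T at -0.79. For the interferon response they lie at 0.17 and 0.18 (-0.18 and -0.06 in the narrow arrays alone, which hold 1 CCAT2-G mouse).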

How the data were processed

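Total RNA of whole marrow was hybridised to Affymetrix arrays, 1 per mouse, and 18 arrays entered the fit. The deposited log2 values were normalized by the authors with RMA, which corrects background, applies quantile normalization and summarises probes, as the submitters' processing notes name it. Software and scan batches were not given in the sources used here. Of 45101 probesets 34958 carry 1 gene symbol, 932 several and 9211 none, and only the first were used, with the brightest probeset of each gene. Brightness and the filter were taken from means over all 18 arrays. Genes whose mean lay under the 30th percentile, 3.30, were left out. limma 3.58.1 in R 4.3.3 (lmFit and eBayes with trend) was fitted with 3 groups for DRAI- against WT and with 4 groups for the alleles, so that the DRAI+ mice share in the estimate of the spread, with Benjamini-Hochberg adjustment over 14505 genes. The procedure was tested on simulated data.

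Named genes were the 5 per direction with the smallest pooled p (none passed the adjusted threshold), the 5 shared genes per direction with the smallest larger p of both alleles, the 4 per direction of 1 allele only with the smallest p between alleles, the 3 members of each described list with the smallest pooled p, and fixed marker genes. Predicted genes, clones, expressed sequences and immunoglobulin or T-cell receptor segments were left out of these rankings, except those within lists. Other shared genes, list members in an allele set, genes without overlap and Add1 were added after their values were seen. The members and the 40 lists (39 beside a sex-linked one) were chosen with earlier results of these data known. A mouse's list level is the mean over the measured members. Alternatives covered normalization, filter, probeset choice, spread estimate, array weights, blocks, covariates, and leaving out arrays or each mouse. The one with only the narrow arrays was chosen after seeing the data and holds 1 CCAT2-G mouse. The number of arrays limits the precision.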

Additional observations from a re-analysis of the deposited data

Results flagged for a closer look

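The values of 147 items (128 genes and 19 list levels) were searched for a mouse that stands apart, in the WT mice, the 8 DRAI- mice and each allele. The measure is the gap of the highest or lowest mouse to its nearest neighbour as a share of the whole range of the group, set against Dixon's limit of 0.829 for 4 mice and 0.526 for 8. Of 588 groups 54 passed (9.18%), where chance passes about 1 in 20, and the items share the same mice, so they are not independent.

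CCAT2-T replicate 3 gave 16 of them. Among the 8 DRAI- mice and among the CCAT2-T mice its gap was 0.938 and 0.974 for Xist, 0.895 and 0.970 for Eif2s3y, 0.741 and 0.915 for Oas2, 0.725 and 0.956 for Tbx21, 0.692 and 0.842 for Atf3 and 0.650 and 0.848 for Jak1. Among the CCAT2-T mice alone it was 0.911 for Klf1, 0.878 for Nfkb2, 0.844 for Cchcr1 and 0.836 for Mtf2. Jak1, Mtf2, Klf1 and Eif2s3y were low in this mouse and the others high.

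CCAT2-G replicate 3 gave 11. Its level of B-cell precursor genes, 5.90, stood apart by 0.954 among the CCAT2-G mice and 0.556 among the DRAI- mice, and that of Cd79a by 0.869 and 0.563. Among the CCAT2-G mice it was also low for Rag2 (0.890), Vpreb1 (0.880) and U2af2 (0.876), and high for S100a8 (0.929), 2310068J16Rik (0.914), Erg (0.907) and Il1rap (0.846).

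WT replicate 4 gave 9, high for Actn3 (0.974), Cox6c (0.973), Ly6g6e (0.924), Kif4 (0.907), Acta1 (0.885), the platelet list (0.879), the skeletal muscle list (0.836) and Rragd (0.831), and low for Psg21 (0.842). WT replicate 3 gave 4, high for Atf3 (0.931), the immediate-early list (0.886), Btg2 (0.879) and Socs3 (0.851). CCAT2-T replicate 1 gave 6, high among the DRAI- mice for the skeletal muscle list (0.755), Acta1 (0.691), Eno3 (0.684), Actn3 (0.622) and Dock4 (0.583), and low among the CCAT2-T mice for Tnfaip3 (0.851). CCAT2-G replicate 1 gave 4, high for Ly6g6e (0.900) and low for Ttc39b (0.859), Sdhb (0.835) and Adat2 (0.830). CCAT2-G replicate 4 was high for Eno3 (0.956) and, among the DRAI- mice, low for Slc25a38 (0.603). CCAT2-T replicate 4 was high for the primary granule list (0.916) and Pola2 (0.892).

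In 9 genes every CCAT2-G mouse lay on one side of the WT mean and every CCAT2-T mouse on the other. The CCAT2-G minus CCAT2-T difference was -1.042 for Add1, 0.716 for Lap3, 0.709 for Scfd1, 0.705 for Mrps24, 0.664 for Casp4, 0.546 for Rpp40, -0.375 for Dclk2, -0.464 for Cchcr1 and -0.596 for Ptpa. These genes were chosen for a difference between the alleles, so this pattern is a description and was not tested again.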

How the results depend on the processing

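Among 30 alternative fits, and among an adjusted p of 0.10 and a test of every probeset, DRAI- against WT and CCAT2-T against WT stayed at 0 genes past the adjusted threshold. CCAT2-G against WT stayed at 0 in every fit with more than 1 CCAT2-G mouse. The 5 narrow arrays alone hold only CCAT2-G replicate 1 of that allele. Counts of that fit that need CCAT2-G as a group are therefore left out, for the shared set and between the alleles too. CCAT2-G against CCAT2-T gave 1 gene with quantile normalization on top and 1 with the filter at the 50th percentile. It gave 1 at an adjusted p of 0.10, and 0 to 1 without each mouse. The 21 shared genes became 47 without the filter, 10 at the 50th percentile, 81 with array weights, 10 in a fit of only the 12 arrays, 215 with the narrow arrays as a block, 290 without them, 272 in them alone, 7 without the stroma-high arrays, and 8 to 86 without each mouse. The 86 genes of CCAT2-G only became 133 with quantile normalization, 1149 with array weights, 271 with the narrow block, 149 without and 450 in the narrow arrays alone, and 38 to 356 without each mouse. The 164 of CCAT2-T only became 454 with array weights, 93 with a sex covariate, 57 without Xist-high arrays, 285 without narrow arrays, 39 without stroma-high arrays, and 52 to 664 without each mouse. The 9 genes without overlap became 20 without the filter, 4 at the 50th percentile, 1594 without narrow arrays, 4150 in them alone, 19 without stroma-high arrays, and 10 to 53 without each mouse. Fewer mice alone make it easier not to overlap; for the other counts the cause was not tested. The 197 genes at an unadjusted p became 69 to 553 without each mouse.

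With a replicate block the shared count was 35, that of CCAT2-G only 132 and that of CCAT2-T only 314. The numbers do not pair the mice by any label, and same-numbered mice correlated from -0.05 to 0.67 in their deviations, over 12 pairs.

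A difference within 1 SE of 0 was not counted as having a direction. Of the 109 differences beyond 1 SE, 87 kept their sign throughout, and of the 22 within it 14 turned at least once. Socs3, Rfc3 and Atp5b were counted both for an allele and for the pooled comparison. Averaging probesets turned Tyw1 (-0.0581), Pola2 (0.0165) and Sdha (0.0164). Array weights turned Thbs1 (0.0329), Ly6d (-0.0964), Actn3 (0.00827), Acta1 (0.0174) and Gata1 (0.00538). Leaving out the stroma-high arrays, of which WT replicate 4 is the one in this comparison, or WT replicate 4 itself, turned Actn3 (0.0248), Acta1 (0.0645) and Cox6c (0.0226). Without each mouse these 3 ran from -0.529 to 0.0248, from -0.703 to 0.0645 and from -0.219 to 0.0226. The narrow arrays alone turned Sdf2l1 (-0.103), Srm (-0.0466), U2af2 (-0.0184), Slc11a2 (0.00815), Urod (0.0214), Calr (-0.19), Bst2 (-0.252), Flt3 (-0.0143) and Ly6d (-0.0299). They also turned Eno3 (0.0573), Actn3 (0.464), Acta1 (0.554), Trim30a (-0.0221), Bop1 (-0.0873), Hyou1 (-0.0631), Hsp90b1 (-0.0645) and Gata1 (0.0514). With CCAT2-G replicate 1 as the only mouse of its allele there, Il1r2 differed by 1.23 and Socs3 by 1.84 for CCAT2-G. Medians of the lists turned sign in 115 of 1170 pairs of list and setting, and 8 moved by at least 1 SD.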
